A study of Mus musculus with 67 samples.

Results

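The nuclear genes of the oxidative phosphorylation complexes were followed through mouse peri-implantation development. They were taken from the wild-type TPM matrix by symbol: every gene starting with Nduf, Sdha to Sdhd, Uqcr, Cox followed by a digit, or Atp5. This gave 110 of the 25006 genes listed, 44 for complex I, 8 for complex II, 8 for complex III, 29 for complex IV, 17 for complex V (ATP synthase) and 4 pseudogenes or near copies. Of these, 108 passed the filter on low values (at least 1 TPM in at least 3 libraries) and were tested. Cox6a2 and Cox8b, isoforms found in striated muscle, did not pass. The 13 subunits encoded in mitochondrial DNA were not analysed here.

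The series profiled wild-type embryos by Smart-seq2, a full-length cDNA method for a handful of cells, in 67 libraries that fall into 23 groups. Lineage names are read with their usual meanings: inner cell mass (ICM), trophectoderm (TE), extraembryonic ectoderm (ExE), trophoblast giant cells (TGC), epiblast (Epi), primitive endoderm (PrE) and visceral endoderm (VE). The groups were ICM of E3.5, TE of E3.5 and E4.5, ExE and TGC of E4.75, and Epi and PrE of E4.5, E4.75, E5.0 and E5.25. Epi was also taken in vivo at E5.0, E5.25 and E5.5, and at E5.5 there were ExE, VE_Epi and VE_ExE in vivo and Epi, ExE, VE and TGC in vitro. All embryos were wild type, came from natural matings, and were dissected from the decidua or grown in 3D culture in Matrigel. A reporter line with EGFP under the Pdgfra promoter, which is active in primitive endoderm, served to isolate lineages. Groups labelled without a suffix (such as Epi of E5.0 and E5.25) do not state whether they were cultured. Groups had 3 libraries each, except for cultured TGC with 4 and, among the in vivo groups of E5.5, Epi, ExE and VE_Epi with 2. The labels speak of biological replicates but not of which embryos each library held, so p-values measure the spread between libraries.

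Oxidative phosphorylation takes place in the inner mitochondrial membrane. Complexes I and II pass electrons from NADH and succinate to ubiquinone, complex III hands them to cytochrome c, and complex IV reduces oxygen. Complexes I, III and IV pump protons, and the return of protons through the membrane-bound Fo part of complex V turns its F1 part, which makes ATP. Each complex needs assembly factors that insert its cofactors, and several complex IV subunits exist in isoforms that depend on tissue or oxygen. The preimplantation embryo is known for its use of pyruvate and oxidative metabolism, and the post-implantation epiblast for a larger use of glycolysis.

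Promoter sequence of RefSeq (GRCm38.p6) was at hand for 87 of the genes, and the 250 bases before the start of each were searched on both strands for 3 words known from respiratory genes. The word GCGCATG, like the site of nuclear respiratory factor 1, was found in 11 of 87 (12.6%) against 3.68% of 27025 genes. The word CCGGAAG, like that of ETS factors such as GABPA, was in 19 of 87 (21.8%) against 7.83%. The word AAGATGG, like that of YY1, was in 2 of 87 (2.30%) against 5.18%. All 3 words were absent from the 5 promoters of complex IV isoform genes. Among 33 of these genes called lower at E5.5 in Epi, ExE or TGC (below), the 3 words were in 5 (15.2%), 8 (24.2%) and 2 (6.06%). The median GC of the windows was 57.6% for the 87 genes and 52.4% for all genes. A match is a description of the letters only, and the windows shown were picked by hand and do not stand for their classes. Shown are 2 subunits lower in E5.5 cultures, Cox6a1 (chr5:115348959-115349208, minus strand) and Atp5g2 (chr15:102671048-102671297, minus strand), and 2 isoforms that varied by lineage, Cox7a1 (chr7:30183921-30184170, plus strand) and Cox6b2 (chr7:4753095-4753344, minus strand). Cox6a1 was called lower in cultured Epi, ExE and VE but not in cultured TGC. Capitals mark the matches; in GCGCATGCGC the word and its reverse complement overlap, and Cox6a1 also holds, near its start, the reverse complement of the ETS-like word. The RefSeq start of Atp5g2 lies outside the GENCODE transcripts used for lengths.

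Cox6a1: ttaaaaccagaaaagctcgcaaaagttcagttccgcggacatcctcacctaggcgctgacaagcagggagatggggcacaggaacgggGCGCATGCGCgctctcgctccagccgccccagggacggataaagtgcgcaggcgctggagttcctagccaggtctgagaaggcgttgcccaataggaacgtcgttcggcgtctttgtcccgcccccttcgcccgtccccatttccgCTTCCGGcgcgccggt
Atp5g2: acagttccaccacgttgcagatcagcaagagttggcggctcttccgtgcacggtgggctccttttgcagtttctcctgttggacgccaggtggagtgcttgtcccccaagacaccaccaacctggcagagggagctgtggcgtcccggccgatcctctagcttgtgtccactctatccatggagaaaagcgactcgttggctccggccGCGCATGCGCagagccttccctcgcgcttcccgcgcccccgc
Cox7a1: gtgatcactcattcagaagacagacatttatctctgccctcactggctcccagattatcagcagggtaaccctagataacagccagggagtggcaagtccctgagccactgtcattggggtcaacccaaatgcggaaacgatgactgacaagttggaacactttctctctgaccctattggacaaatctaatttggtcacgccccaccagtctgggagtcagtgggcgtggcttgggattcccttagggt
Cox6b2: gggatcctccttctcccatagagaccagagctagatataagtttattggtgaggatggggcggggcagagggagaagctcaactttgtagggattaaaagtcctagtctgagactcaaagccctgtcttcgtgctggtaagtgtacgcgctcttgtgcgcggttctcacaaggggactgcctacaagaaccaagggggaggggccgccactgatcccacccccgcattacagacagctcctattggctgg

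TPM values, which are per length and scaled to the library, keep no depth; the libraries listed 8423 to 12644 genes at 1 TPM or more, and libraries of a group correlated at 0.858 to 0.994. PrE and VE markers summed to 2240 to 10200 TPM in the PrE and VE groups. TE of E4.5 listed the giant cell genes Prl3d1, Prl2c2, Ctsq and Cts7 at 0. The whole giant cell list, which adds Hand1 and Plac1, summed to 933 TPM (888 to 970 TPM) in TE of E4.5. It summed to 23449 TPM in TGC of E4.75 and 114807 TPM in cultured TGC. PrE and VE markers summed to 628 to 690.2 TPM in ExE of E4.75, 762 to 875 TPM in cultured ExE and 3.29 to 11.5 TPM in ExE in vivo, and giant cell markers to 2142 to 2345, 180.3 to 213 and 97.8 to 128 TPM; their part in the ExE results was not tested. Rn45s, a ribosomal RNA precursor, made up 22.0 ± 3.17% of summed TPM in E4.5 Epi, 17.6 ± 2.91% in E4.5 PrE and 9.33 ± 1.60% in vivo in E5.0 Epi (SD, n = 3 each), with 1.01% or less in other groups. Since TPM shares one total, such transcripts lower the value of every other gene. Actb, which encodes beta-actin, also took 1.38% to 13.3% of TPM in the groups of E5.5 and 0.0528% to 2.01% in earlier ones. In bulk libraries, fewer cells of a type and less RNA per cell cannot be told apart.

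Most subunits were among the abundant transcripts. Averaged over all libraries, the highest of each class were Ndufs7 (467 TPM) among the complex I core subunits that carry the electrons, Ndufb8 (937) among its accessory subunits, Sdhb (512), the iron-sulfur subunit of complex II, Uqcr10 (1459) in complex III, and Cox4i1 (1732) in complex IV. In complex V, Atp5b, the catalytic beta subunit, averaged 1744 TPM and Atp5g1, a gene for subunit c of the rotor ring, 1130.4 TPM. The lowest subunits of these classes were Ndufs1 (83.5), Ndufs4 (103), Sdha (141), Uqcrc2 (239), Cox7b (430.2), Atp5d (584) and Atp5g3 (331 TPM). Assembly factors were lower. Those of complex I ran from Ndufaf5 (7.88 TPM) to Ndufaf8 (141 TPM), those of complex II from Sdhaf3 (20.7) to Sdhaf4 (65.0), and those of complex IV from Cox15, which makes heme a, at 10.1 to the copper chaperone Cox17 at 488 TPM. Among the copies Ndufs5-ps averaged 169 TPM and Ndufa11b 0.459 TPM; how the authors' counting split reads between such copies and their parent genes is not given in the sources used here, so levels of both are uncertain.

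The median ratio of the highest to the lowest group mean was 4.09 for complex I core subunits, 5.55 for its accessory subunits, 6.98 for complex IV subunits, 6.61 for Fo subunits and 11.9 for complex IV assembly factors. Of the 9 complex IV isoforms 7 were listed at 0 in at least 1 whole group, so that no ratio is given for them; the ratio was 54.1 for Cox7a1 and 2.83 for Cox7a2l. Across the 23 group means, a gene's level correlated with the mean of the other genes with a median Pearson r of 0.845 for Fo subunits and 0.801 for complex IV subunits, and of 0.245 for complex I assembly factors and 0.0761 for complex IV isoforms; the groups share library scaling, so these are descriptions. Sdhc, a membrane anchor of complex II, varied most among the subunits, from 698 ± 90.2 TPM (SD, n = 3) in PrE of E4.5 to 27.7 TPM in Epi of E5.5 in vivo (35.7 and 19.6 in its 2 libraries). The map of all 108 genes shows the columns of TE as high for most classes and those of E4.5 Epi and PrE as low for many short subunits.

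**Figure D1:**
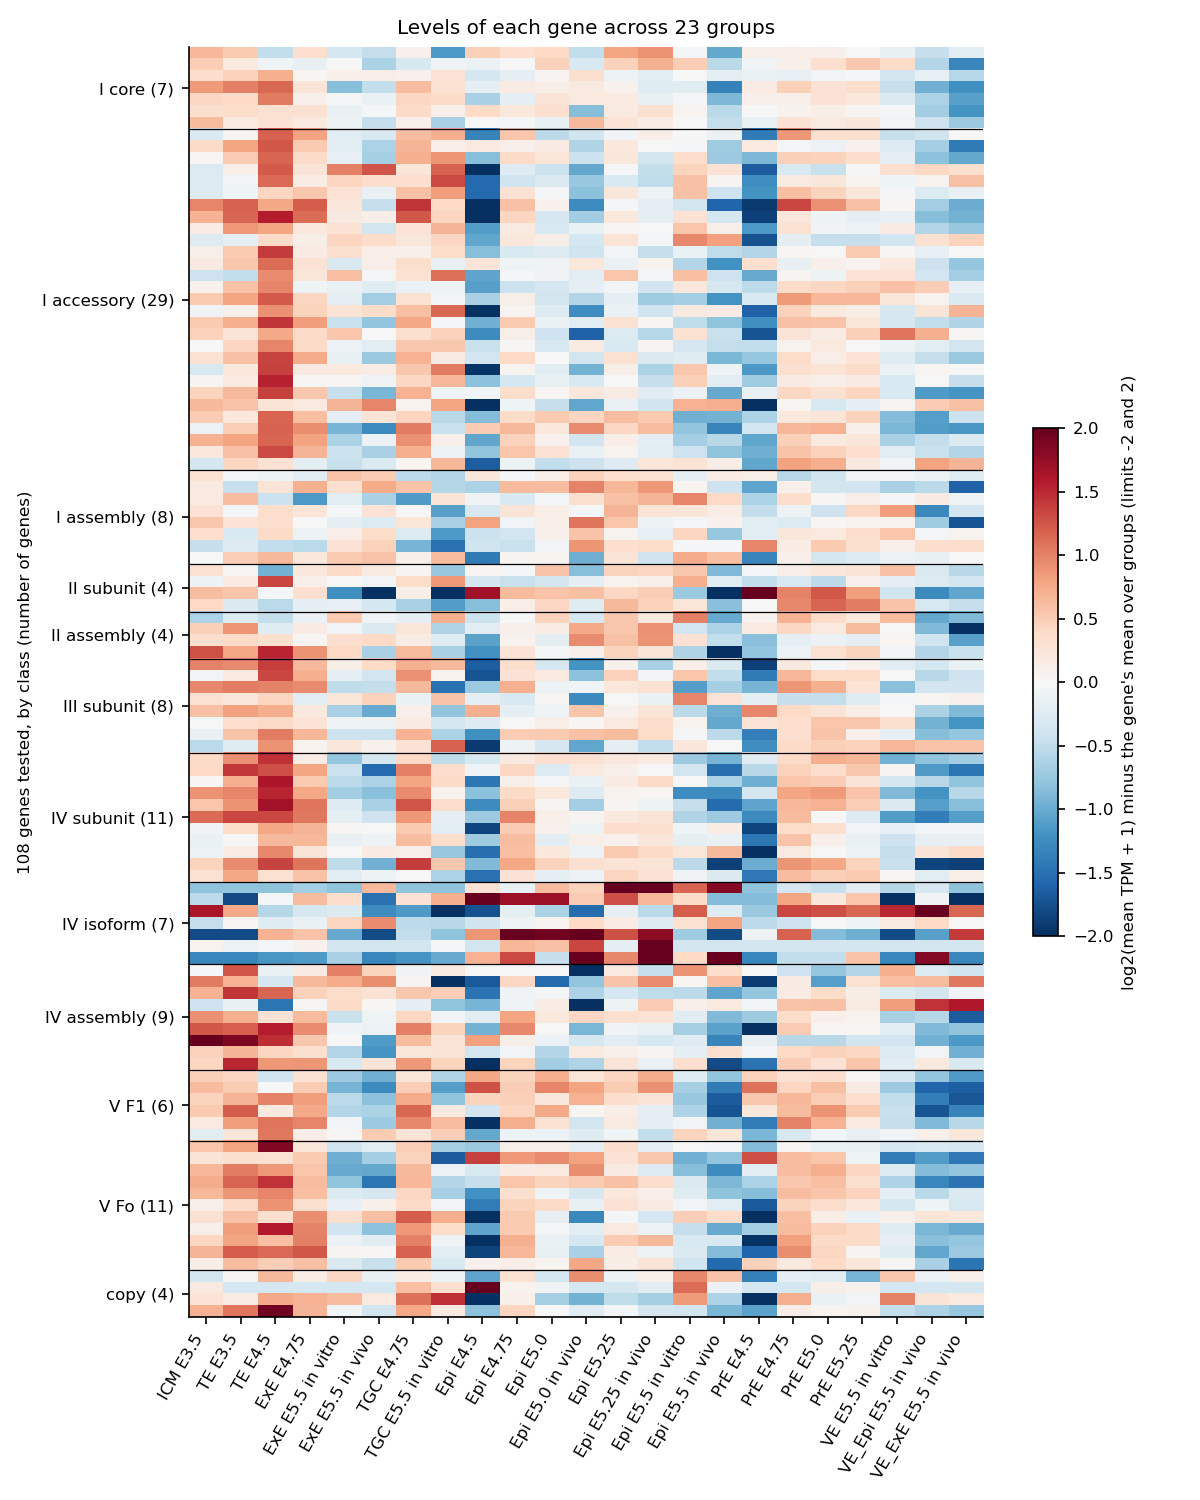
Heat map of log2(mean TPM + 1) in each of 23 groups (columns), relative to the mean of each gene over groups, for the 108 genes tested (rows, by class, with the number of genes); colours are limited to −2 and 2. TE of E4.5 is the group in which 43 of the 110 genes were highest.

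Summed over all 110 genes, the transcripts took between 2.96% and 9.21% of a group's TPM. TE of E4.5 was highest at 9.21 ± 0.156% (SD, n = 3; 9.04% to 9.35%), above every other library, followed by TE of E3.5 at 6.95 ± 0.299%, TGC of E4.75 at 6.72 ± 0.200% and ExE of E4.75 at 6.45 ± 0.0324%. Trophectoderm and its early derivatives held the top 4 places. TE of E3.5 overlapped TGC of E4.75, but TGC of E4.75 lay above ExE and ExE above PrE of E4.75 (5.93 ± 0.159%) in every library. The middle of the order held ICM (5.74 ± 0.0890%), Epi of E4.75 (5.55 ± 0.0783%), PrE of E5.0 (5.61%) and of E5.25 (5.22%), and Epi of E5.25 (5.15%), and Epi of E4.75 lay above PrE of E5.25 in every library. Below them, neighbouring groups overlapped down to the lowest. The E5.5 groups lay at 4.97% (cultured TGC), 4.44% (cultured Epi), 4.06% and 3.89% (ExE in vitro and in vivo), 3.84% (cultured VE), 3.31% (VE_Epi), 3.29% (Epi in vivo) and 3.27% (VE_ExE). PrE of E4.5 (3.00%) and Epi of E4.5 (2.96%) were lowest, an order that turned with the total used. With Rn45s left out they were at 3.64% and 3.79%, above VE_ExE (3.28%), Epi in vivo (3.30%) and VE_Epi (3.32%) of E5.5. With Actb left out as well, as tried after seeing the data, Epi in vivo of E5.5 was lowest, followed by PrE of E4.5 (3.64%), VE_Epi (3.69%), VE_ExE (3.77%) and Epi of E4.5 (3.80%).

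**Figure D2:**
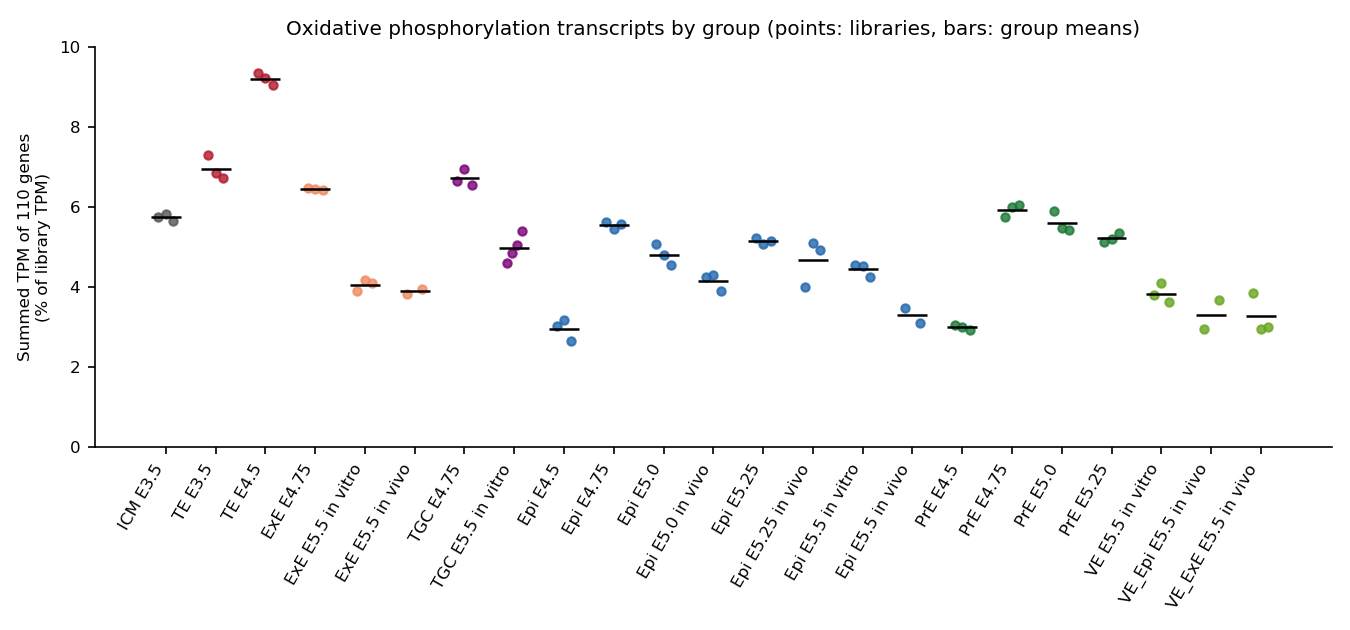
Summed TPM of the 110 genes as a percent of all TPM (y axis) in each library (points) of the 23 groups (x axis), with group means as bars. The 3 libraries of TE of E4.5 lie at 9.04% to 9.35%, above all others.

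The make-up of this sum changed at E5.5 in every lineage sampled. Complex I took 34.6% to 38.7% of the summed TPM in the 8 groups of E5.5, cultured or in vivo, and 26.0% to 30.1% in the 15 groups of earlier stages. The 22 libraries of E5.5 lay between 34.4% and 39.8% and the 45 earlier ones between 24.7% and 30.3%, with no overlap. In Epi, the value was 26.6% at E4.75 and 29.1% at E5.25, and 36.7% in culture at E5.5. In Epi in vivo it was 26.6% at E5.25 and 35.4% at E5.5. In ExE it was 27.2% at E4.75 and 37.1% in culture at E5.5, in TGC 27.7% and 38.7%, and from PrE of E5.25 to cultured VE 30.1% and 34.6%. Complex IV took 22.3% to 26.6% at E5.5 and 21.7% to 33.1% before, where the low end is Epi and PrE of E4.5. Complex V took 20.9% to 23.9% at E5.5 and 23.9% to 36.3% before, and complex III 12.1% to 14.0% and 8.59% to 12.2%. Libraries of E5.5 and of earlier stages overlapped in the parts of complexes II, III, IV and V. Being a ratio within the 110 genes, this split does not depend on the scaling of the library. With each of the 110 genes left out in turn, the lowest E5.5 library stayed above the highest earlier one in all 110 cases, by at least 2.29 percentage points. This comparison was chosen after the group levels were seen and has no test. Libraries of E5.5 differ from all others in stage, and a processing batch that went with that stage cannot be told apart from it.

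**Figure D3:**
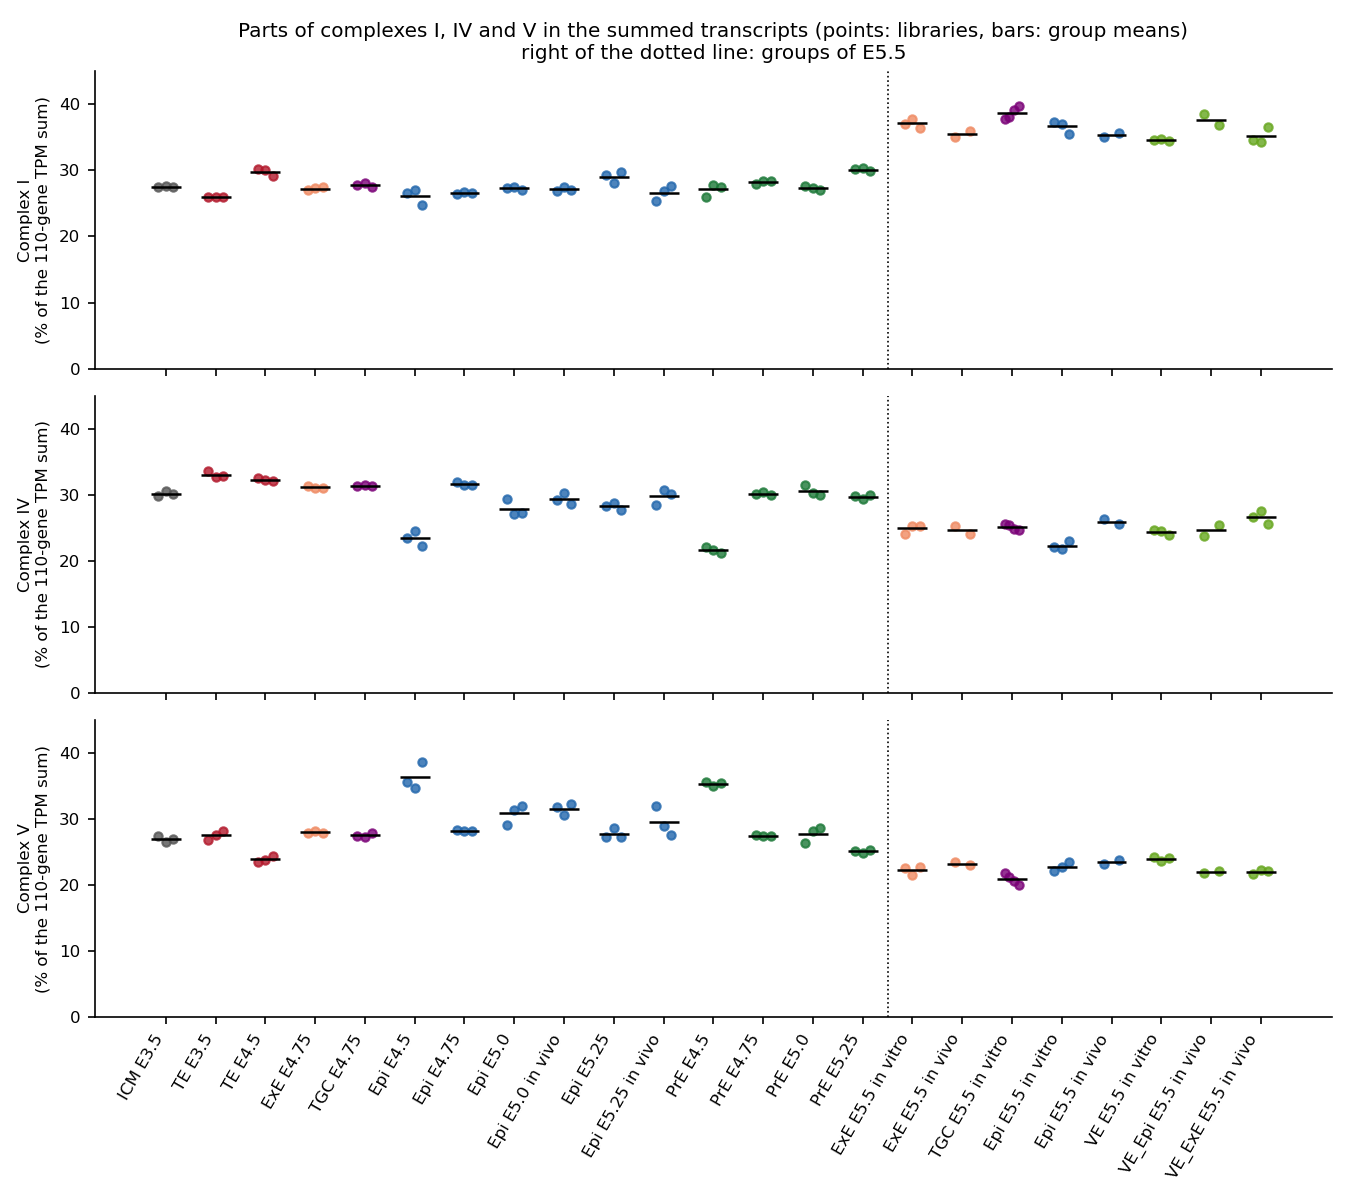
Part of complexes I, IV and V (panels) in the summed TPM of the 110 genes, in percent (y axis), for each library (points) with group means (bars); groups of E5.5 stand right of the dotted line. For complex I all 22 libraries of E5.5 lie at 34.4% or more and all 45 others at 30.3% or less.

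The shift came from some genes of each complex and not from all. Of the 44 complex I genes, 25 took a larger mean part at E5.5, 18 of the 29 accessory subunits among them. In complexes II, III, IV and V, 4 of 8, 4 of 8, 13 of 29 and 4 of 17 genes did so. The genes of the largest changes, named after their values were seen, were the accessory subunits Ndufc1 (from 1.10% to 2.84%), Ndufa7 (from 1.48% to 3.20%) and Ndufa12 (from 0.590% to 1.60%), in means over earlier and E5.5 groups. Opposite shifts stood side by side in complex V. Atp5o, a subunit of the stalk, went from 2.06% to 3.69%, with every E5.5 library above every earlier one, as for Ndufa12. It was counted with the F1 subunits here and below, although it is not part of F1 itself. Atp5b went from 4.85% to 1.70%, with overlapping libraries. The F1 genes Atp5a1, Atp5d and Atp5e took smaller mean parts as well, also with overlap. Atp5c1, the central gamma subunit, went from 2.08% to 0.951%, with every E5.5 library below every earlier one. Atp5h, of the outer stalk, showed the same separation (from 1.91% to 0.981%). For the other 106 genes the ranges overlapped. In complex IV the largest mean drop was that of Cox4i1 (from 3.93% to 2.48%).

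Within the blastocyst, TE differed from ICM in few of these genes. At E3.5, 3 of 108 genes were called higher in TE and 1 lower (limma, Benjamini-Hochberg adjusted p under 0.05 and at least 1 log2 of TPM + 1), against 5.92% and 7.62% of the 15567 genes tested. Cox5a, a subunit on the matrix side of complex IV, was listed at 3070.0, 2883 and 2969 TPM in TE and 1524, 1419 and 1455 TPM in ICM. No TE library overlapped an ICM library, and the log2 difference was 1.02 ± 0.12 (SE; limma, adjusted p = 3.6e-10). It stands close to the minimum of 1 and was no longer called without ICM replicate 2 or without TE replicate 1. The other 2 were assembly genes: Cox10, which farnesylates heme, at 1.29 (adjusted p = 0.0039) and Cox20, a chaperone of the Cox2 subunit, at 1.07 (adjusted p = 0.0031). Cox6b2, an isoform best known from testis, was lower, at −1.23 (adjusted p = 0.046), a call that 11 alternatives ended. Without TE replicate 1 the count of called genes was 1 in place of 4, and without ICM replicate 2 it was 2. The median log2 difference of the 108 genes was 0.23, against −0.06 for all genes.

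From E3.5 to E4.5 in TE, the genes called higher included 6 of 29 accessory subunits of complex I. None of the 11 common subunits of complex IV was called, although their summed share went from 2.05% to 2.73% of TPM, 1.33 times, against 1.60 times for the accessory subunits of complex I, 1.27 times for Fo and 0.982 times for F1 subunits. In total 12 genes were called higher and 7 lower, against 3.25% and 18.3% of all genes, and the medians were 0.30 and −0.26. Ndufab1, the acyl carrier protein of complex I, went from 628, 582 and 558 to 1709, 1651 and 1426 TPM. All 3 later libraries lay above the earlier ones, at a log2 difference of 1.43 ± 0.11 (SE; limma, adjusted p = 5.6e-16). Ndufb8 rose by 1.34 (adjusted p = 2.5e-13), Sdhb by 1.14 (adjusted p = 4.7e-09), the complex III subunits Uqcrq by 1.14 (adjusted p = 1.8e-10) and Uqcr11 by 1.13 (adjusted p = 1.6e-09), and Atp5g1 by 1.06 (adjusted p = 4e-13), a call lost after quantile normalization. The genes that fell were mostly assembly factors. They were Cox10 at −1.39 (adjusted p = 0.0012), Cox15 at −1.33 (adjusted p = 0.018), Cox11 at −1.02 (adjusted p = 0.0083), Sdhaf2, which adds FAD to Sdha, at −1.13 (adjusted p = 0.0026), Ndufaf3 at −1.06 (adjusted p = 8e-05), the isoform Cox7a1 at −1.40 (adjusted p = 0.042) and the F1 delta subunit Atp5d at −1.02 (adjusted p = 4.2e-05). These lower calls were lost with other scalings: 14 genes were higher and 0 lower after quantile normalization, 47 and 0 after median-ratio scaling, and 19 and 0 with the length trend removed. Over the 18 comparisons, median-ratio scaling moved the median of all genes by −0.29 to 0.51 log2 and by more than 0.1 in 10 of them. Quantile normalization moved it by −0.44 to 0.51, and removal of the length trend by −0.53 to 0.57. Counts under other scalings stand here and below without the share of all genes called under the same scaling. They show how far the calls depend on scaling, and a shift of all genes is not separated from them.

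Between Epi of E4.75 and ICM of E3.5 no common subunit was called. The calls were of isoforms and 1 assembly factor, 3 genes higher and 2 lower against 13% and 8.84% of all genes. Cox18, which inserts the Cox2 subunit into the membrane, was at 57.9, 60.7 and 51.4 TPM in Epi and 238, 240.4 and 248 TPM in ICM, with no overlap, at −2.08 ± 0.38 (SE; limma, adjusted p = 1.4e-05). Cox7b2 and Ndufa4l2 were listed at 0 in all ICM libraries and at 28.0 and 5.10 TPM on average in Epi, so no fold is given. Cox6b2 was higher by 2.29 (adjusted p = 5.7e-05) and Cox7a1 lower, at −1.80 (adjusted p = 0.0072); the latter call was lost with a pseudocount of 0.1 TPM. The medians were −0.08 for the 108 genes and 0.11 for all genes.

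Between E4.5 and E4.75 small subunits of 4 complexes rose in Epi and in PrE. In each lineage 53 of 108 genes were called higher and 1 lower, against 16% and 8.62% of all genes in Epi and 16.3% and 5.37% in PrE. The median log2 differences were 1.06 in Epi and 1.08 in PrE, and 0.13 and 0.24 for all genes. Atp5k, the small Fo subunit e, was in Epi at 78.1, 76.5 and 71.5 TPM (E4.5) and 919, 714 and 857 TPM (E4.75), and in PrE at 76.7, 67.6 and 89.1 TPM and 801, 853 and 949 TPM. Libraries of E4.5 lay far below those of E4.75 in both lineages, at 3.44 ± 0.19 (SE; limma, adjusted p = 3.2e-21) in Epi and 3.47 ± 0.19 (SE; limma, adjusted p = 4e-21) in PrE. Ndufa3, a small membrane subunit of complex I, rose by 2.82 (adjusted p = 7.4e-18) in Epi and 3.26 (adjusted p = 5.7e-20) in PrE. Atp5e, the F1 epsilon subunit, rose by 2.79 (adjusted p = 6.8e-25) and 2.40 (adjusted p = 5.4e-22), and Atp5md by 2.75 (adjusted p = 3.9e-19) and 2.80 (adjusted p = 2.9e-19). Of complex IV, Cox7a2 rose by 2.36 (adjusted p = 1.2e-21) and 2.21 (adjusted p = 2.2e-20), and Cox7c by 2.12 (adjusted p = 5.4e-19) and 2.21 (adjusted p = 1.7e-19). Of its assembly genes, Cox20 rose by 2.86 (adjusted p = 2.8e-12) in Epi and Cox17 by 2.52 (adjusted p = 2.9e-15) in PrE. Uqcr11 of complex III rose by 2.03 (adjusted p = 5.7e-18) and 2.07 (adjusted p = 4.3e-18).

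The classes moved unequally. In Epi 19 of 29 accessory subunits of complex I, 5 of 8 complex III subunits, 9 of 11 complex IV subunits and 7 of 11 Fo subunits were called higher, while 0 of 7 core subunits and 1 of 6 F1 subunits (Atp5e) were. In PrE the counts were 21 of 29, 5 of 8, 10 of 11 and 7 of 11, with 0 of 7 and 1 of 6. Sdhc was the gene that fell in both, from 483 ± 48.4 TPM (SD, n = 3) to 235 ± 5.53 TPM (SD, n = 3) in Epi, at −1.03 ± 0.23 (SE; limma, adjusted p = 0.00024), and from 698 ± 90.2 TPM (SD, n = 3) to 300.2 ± 9.25 TPM (SD, n = 3) in PrE, at −1.21 ± 0.23 (SE; limma, adjusted p = 2.8e-05). The Epi call was lost without Epi of E4.5 replicate 2. Transcript length moved with the rise. Among the 104 genes with a length, the median log2 difference in Epi was 1.56 for the 52 shorter ones and 0.34 for the 52 longer ones (Spearman rho −0.58 across genes), and in PrE 1.57 and 0.44 (rho −0.60). The median length of these genes, 714.75 nt, compares with 2037 nt over all genes tested. With the length trend of each library removed, 39 genes were higher and 4 lower in Epi and 35 and 3 in PrE. With Rn45s left out, the counts were 42 and 5, and 44 and 2. The part of the Rn45s share and of length in the rise was not tested beyond these values.

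**Figure D4:**
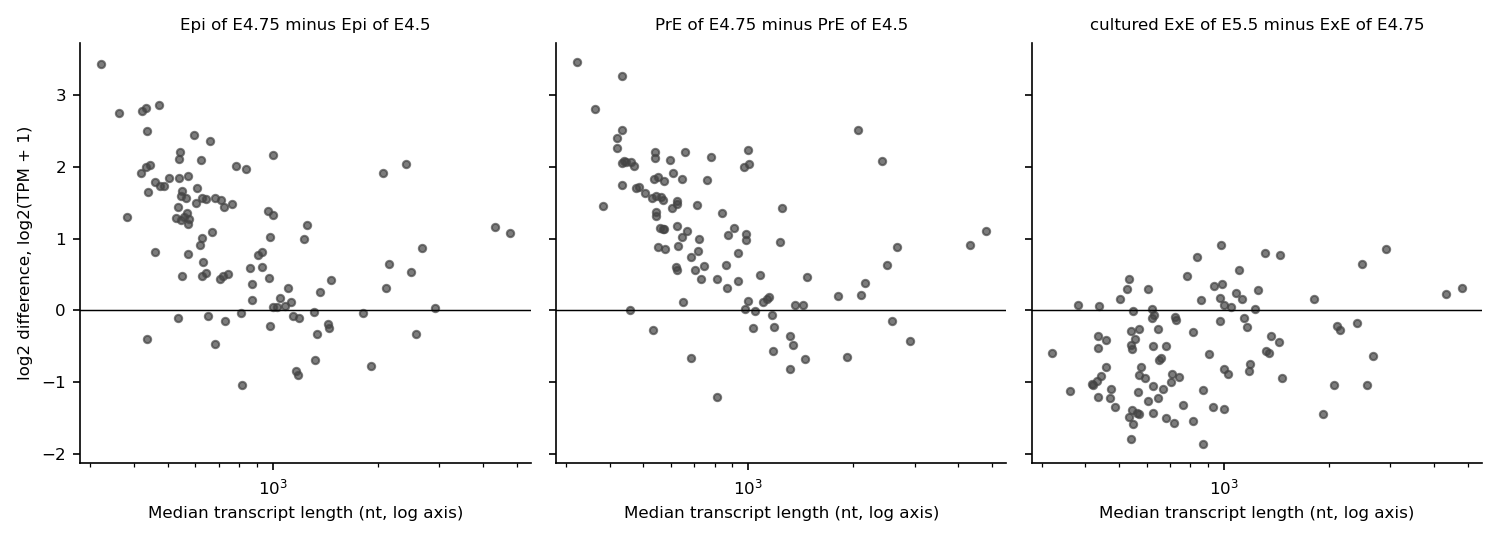
log2 difference in TPM + 1 (y axis) against median transcript length in nt (x axis, log scale) for the 104 genes with a length, in 3 comparisons (panels). Short transcripts lie highest in both comparisons of E4.75 with E4.5, and the slope is opposite in ExE from E4.75 to E5.5.

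From E4.75 to E5.5 in culture, transcripts of some subunits of complexes IV and V fell in Epi. Here and for ExE and TGC below, the E5.5 groups were in vitro, while the labels of E4.75 do not state culture. The parts of stage and of culture cannot be told apart in these comparisons. In the Epi comparison 5 genes were called higher and 19 lower, against 11.1% and 11.2% of all genes, with medians of −0.35 and 0.00. Atp5g2, a gene for subunit c, was at 537, 565 and 587 TPM at E4.75 and 152, 164 and 156 TPM at E5.5, without overlap, at −1.83 ± 0.15 (SE; limma, adjusted p = 9.4e-15). Uqcrb, the ubiquinone-binding subunit of complex III, went from 869 ± 82.4 TPM (SD, n = 3) to 248 ± 58.3 TPM (SD, n = 3), at −1.83 ± 0.17 (SE; limma, adjusted p = 6.3e-13). Cox6a1 and Cox6c, regulatory subunits of complex IV, fell, at −1.63 (adjusted p = 1.9e-17) and −1.58 (adjusted p = 7.3e-14), and Cox17 at −1.62 (adjusted p = 2.3e-09). Ndufs4, an accessory subunit whose loss causes Leigh-like disease in mice, fell, at −1.44 (adjusted p = 1.6e-08) and Ndufc2 at −1.34 (adjusted p = 5.5e-10). Sdhc fell, at −1.43 (adjusted p = 1.1e-06), Atp5c1 at −1.24 (adjusted p = 5e-16) and Atp5b at −1.16 (adjusted p = 3.4e-12); the last call was lost after quantile normalization. Called lower were 3 of 11 complex IV subunits, 3 of 6 F1 and 4 of 11 Fo subunits, and 4 of 44 complex I genes. By class the medians were −0.81 for complex IV subunits, −0.91 for F1, −0.85 for Fo and −0.06 for complex I accessory subunits.

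A few genes rose in the same comparison. Uqcrc1, a core protein of complex III, went from 695, 793 and 779.6 to 2187, 1798 and 1539 TPM, without overlap, at 1.27 ± 0.10 (SE; limma, adjusted p = 1.5e-15). Sdhb rose by 1.17 (adjusted p = 2.3e-09) and Ndufaf3, an assembly factor of complex I, by 1.27 (adjusted p = 3.1e-06). The isoforms Cox7a1 and Cox4i2 were called too, but each call was lost in 11 alternatives. With other scalings the split of 5 higher and 19 lower became 3 and 17 (quantile), 3 and 25 (median-ratio) and 8 and 12 (length trend removed). Of the 3 genes chosen to mark this module, Atp5g3 fell, at −1.01 (adjusted p = 2e-05), Cox5a was at −0.81 ± 0.12 (SE; limma, adjusted p = 9.8e-08) and Cox4i1 at −0.93 ± 0.13 (SE; limma, adjusted p = 6.9e-08). Cox5a and Cox4i1 lie under the minimum difference of 1 and were not called. The Atp5g3 call was lost with the length trend removed, without Epi of E4.75 replicate 2 or without cultured Epi replicate 2.

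In cultured ExE 29 of 108 genes were called lower than in ExE of E4.75 and 0 higher, against 6.97% and 14.8% of all genes. The medians were −0.50 for these genes and 0.17 for all. Ndufs4 went from 165, 169.7 and 163 to 54.2, 41.8 and 39.8 TPM, without overlap, at −1.87 ± 0.19 (SE; limma, adjusted p = 1.4e-11). Called lower were 6 of 11 complex IV subunits, with Cox8a at −1.58 (adjusted p = 1.4e-11) and Cox6a1 at −1.44 (adjusted p = 1.9e-15), 5 of 6 F1 subunits, with Atp5b at −1.45 (adjusted p = 2.3e-15), and 6 of 11 Fo subunits, with Atp5g3 at −1.56 (adjusted p = 1.5e-09) and Atp5g2 at −1.50 (adjusted p = 7.9e-12). Sdhc fell, at −1.55 (adjusted p = 2.1e-07). Under median-ratio scaling 46 genes were lower. The summed share was 3.89 ± 0.102% (SD, n = 2) in ExE of E5.5 in vivo and 4.06 ± 0.148% (SD, n = 3) in cultured ExE.

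Cultured TGC had 20 genes called lower and 1 higher than TGC of E4.75, against 14.8% and 6.57% of all genes, with medians of −0.49 and −0.13. Sdhc was at 154, 168 and 169 TPM at E4.75 and 35.3, 35.8, 37.8 and 33.8 TPM at E5.5, without overlap, at −2.16 ± 0.21 (SE; limma, adjusted p = 2.3e-12). Uqcrb fell, at −2.14 (adjusted p = 1.3e-16), Atp5g2 at −2.11 (adjusted p = 2.7e-18), Atp5b at −1.59 (adjusted p = 2.6e-18), and Cox11, which brings copper to the Cox1 subunit, at −2.18 (adjusted p = 1.1e-08). Ndufaf3 rose by 1.38 (adjusted p = 1e-07). These libraries give much of their TPM to giant cell genes (the values are above), and the split depended on scaling: 5 higher and 9 lower after quantile normalization, 8 and 9 after median-ratio scaling, and 8 and 8 with the length trend removed.

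Cultured VE, set against PrE of E5.25, had 3 genes called higher and 9 lower, against 13.1% and 3.57% of all genes, with medians of −0.33 and 0.15. Cox4i1, the common isoform of a regulatory complex IV subunit, went from 2289.6, 2438 and 2599.9 to 781, 833 and 767 TPM, without overlap, at −1.62 ± 0.13 (SE; limma, adjusted p = 1.9e-14). Cox6a1 fell, at −1.45 (adjusted p = 4.5e-15), Atp5g2 at −1.32 (adjusted p = 7.9e-10), and Sdhc at −1.25 (adjusted p = 2.9e-05). Of the 3 higher genes, 2 were copies (Cox7c-ps1 and Ndufb4c) and the other was Cox10. The split became 0 and 12 after quantile normalization, 1 and 22 after median-ratio scaling and 0 and 9 with the length trend removed. Stage, lineage name and culture differ together here, and their parts cannot be told apart.

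The genes called lower at E5.5 against E4.75 (against PrE of E5.25 for VE) overlapped between lineages. In Epi, ExE and TGC alike these were Atp5b, Atp5c1, Atp5g2, Atp5md, Cox6c, Ndufs4, Sdhc and Uqcrb, 8 of 108 genes against 3.08% of all genes tested. They are 42.1% of the genes of the complexes called lower in Epi, 27.6% of those in ExE and 40% of those in TGC. Over all genes, 479 were shared, of 1742 called lower in Epi, 1085 in ExE and 2301 in TGC. That is a smaller part than for the complexes in Epi and TGC, and a larger one in ExE. Of the 8 genes, Atp5g2, Ndufs4, Sdhc and Uqcrb were lower in VE as well, 4 of 108 against 0.906% of all genes. Some of these calls were lost in alternatives: that of Atp5md in Epi in 5, that of Cox6c in TGC in 3 (other scalings and the length trend), that of Ndufs4 in VE in 3 and that of Atp5b in Epi in 1. The 4 comparisons share no libraries.

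Lineages of one stage were tested in the pairs that follow. PrE against Epi gave 1 gene higher and 2 lower at E4.75 (8.69% and 8.31% of all genes) and 0 and 2 at E5.25 (9.94% and 11.2%). All were isoforms. At E4.75 Cox7a1 was higher in PrE at 1.51 (adjusted p = 0.031), with 40.7, 39.4 and 43.9 TPM against 11.8, 15.4 and 14.5 TPM. Cox7b2 was lower, at −1.94 (adjusted p = 0.024) and Ndufa4l2 at −1.79 (adjusted p = 0.014). The Cox7a1 call was lost without any 1 of the 6 libraries. Leaving out Epi replicate 1 left 0 called genes, and leaving out Epi replicates 2 or 3 or PrE replicate 2 left 1. At E5.25 Cox4i2, the isoform known from low oxygen and lung, was lower in PrE at −2.37 (adjusted p = 0.00028) and Cox7b2 at −2.31 (adjusted p = 0.0051). The median differences were 0.07 and 0.01, against −0.08 and −0.10 for all genes. TE and Epi of E4.5 were not tested gene by gene. Their summed shares stood 3.11-fold apart (2.43-fold with Rn45s left out). With Rn45s kept in, the common subunits of complex IV were 4.45-fold and the accessory subunits of complex I 4.14-fold higher in TE. Rn45s held 22.0% of the Epi total but 0.103% of the TE total, which raises both class folds. Epi of E4.75, a later stage, stood nearer to TE: common complex IV subunits took 1.59% there, against 0.613% (E4.5 Epi) and 2.73% (TE). For complex I accessory subunits these shares were 1.25%, 0.578% and 2.39%. The part of transcript length in these gaps was not tested.

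The change of the PrE to Epi difference from E4.75 to E5.25 gave 0 genes higher and 1 lower, against 3.1% and 1.48% of all genes. It was Ndufaf3, which was at 43.5 TPM in PrE and 27.4 in Epi at E4.75, and at 37.1 and 51.6 at E5.25, for a difference of log2 differences of −1.12 ± 0.30 (SE; limma, adjusted p = 0.014). The count was 0 without PrE of E4.75 replicate 1 or PrE of E5.25 replicate 1, and 2 without Epi of E4.75 replicate 3 or PrE of E5.25 replicate 3.

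At E5.5, cultured VE had 0 genes higher and 4 lower than cultured Epi (17.3% and 11.3% of all genes). Ndufa7, of the peripheral arm of complex I, was at 705, 668 and 637 TPM in VE and 1903, 1793 and 1431 TPM in Epi, at −1.34 ± 0.13 (SE; limma, adjusted p = 1.4e-12). The other 3 were the isoforms Cox6b2 (−2.47, adjusted p = 1.2e-05), Cox4i2 (−1.66, adjusted p = 0.009) and Ndufa4l2, whose libraries overlapped. The medians were −0.11 and 0.00.

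Between TGC and ExE of E4.75 limma called 0 of these genes in either direction, against 2.12% higher and 2.24% lower of all genes. DESeq2 and edgeR, which need counts, were not used. In culture at E5.5, TGC had 4 genes higher and 9 lower than ExE (6.28% and 31.5% of all genes), with medians of 0.18 for these genes and −0.51 for all. The core subunit Ndufs7 was at 452, 461, 551 and 582 TPM in TGC and 254, 211 and 219 TPM in ExE, without overlap, at 1.16 ± 0.13 (SE; limma, adjusted p = 1.7e-10). Ndufv3 was higher by 1.10 (adjusted p = 3.5e-11) and Cox8a by 1.05 (adjusted p = 5.1e-08). The lower genes were 7 assembly factors, the isoform Cox7a1 and the flavoprotein Sdha, at −1.12 (adjusted p = 9.4e-06). Of the assembly factors, Cox11 was lower, at −2.86 (adjusted p = 2.7e-12) and Ndufaf7 at −1.77 (adjusted p = 1.5e-09). After quantile normalization 20 genes were higher and 2 lower, after median-ratio scaling 65 and 2, and with the length trend removed 25 and 3.

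Epi with and without the in vivo suffix was compared at 3 stages. The E5.5 in vitro group also enters the comparisons with Epi of E4.75 and with VE above, so the values are given side by side. At E5.0 the unsuffixed Epi had 12 genes higher and 2 lower than Epi in vivo (23.1% and 1.97% of all genes), with medians of 0.17 and 0.39. Cox15 was at 13.9, 5.45 and 10.3 TPM and, in vivo, at 0, 1.17 and 1.17 TPM, without overlap, at 2.61 ± 0.44 (SE; limma, adjusted p = 4e-06), and Cox10 was higher by 2.18 (adjusted p = 1.1e-06) and Sdha by 1.44 (adjusted p = 6.7e-07). This split turned with the scaling, to 4 and 9 (quantile), 2 and 18 (median-ratio), 2 and 11 (length trend removed) and 7 and 5 with Rn45s left out, and Rn45s took more of the TPM in vivo (above). Epi markers (Pou5f1, Sox2, Tdgf1, Fgf4, Fgf5, Otx2 and Nanog) summed to 169 to 234 TPM in Epi in vivo of E5.0, the lowest mean of the Epi groups. They summed to 521 to 624 TPM in unsuffixed Epi of E5.0 and to 328 to 356 TPM in PrE of E4.75. The part of this in the split was not tested. At E5.25 there were 0 higher and 2 lower (7.99% and 2.7%), Ndufa4l2 at −1.87 (adjusted p = 0.016) and Cox8c, an isoform best known from testis, at −1.81 (adjusted p = 0.0067) with overlapping libraries. No gene was called without in vivo replicate 3, and 1 was called without in vivo replicate 2 or without replicate 2 of the unsuffixed group. The medians were 0.16 for both these genes and all genes.

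At E5.5 cultured Epi had 24 genes higher and 1 lower than Epi in vivo (15.1% and 6.73% of all genes), with medians of 0.54 and 0.18. Of complex II, 5 of 8 genes were called higher. Sdhc was at 58.1, 113 and 97.8 TPM in culture and 35.7 and 19.6 TPM in vivo, at 1.67 ± 0.25 (SE; limma, adjusted p = 9.1e-07). Sdha was higher by 1.42 (adjusted p = 1.2e-05), Sdhd, the other anchor, by 1.18 (adjusted p = 5.2e-08), and the assembly factors Sdhaf1 by 2.09 (adjusted p = 0.0066) and Sdhaf4 by 1.55 (adjusted p = 0.00023). Of complex IV, Cox8a was higher by 1.39 (adjusted p = 2.7e-08) and Cox5a by 1.13 (adjusted p = 1e-09); Cox20 was higher by 2.10 (adjusted p = 5.4e-07) and the Fo subunit Atp5pb by 1.17 (adjusted p = 6.7e-13). The in vivo group has 2 libraries. Without in vivo replicate 2 the count was 12 in place of 25, and in a fit of these 2 groups alone it was 8, all higher. Under median-ratio scaling 9 were higher and 1 lower, with the length trend removed 6 and 2.

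Isoforms of complex IV followed lineage and stage. Cox7a1, the heart and muscle form of subunit VIIa, was at 51.0 ± 7.78 TPM in ICM, 41.3 ± 2.32 in PrE of E4.75, 46.8 ± 6.85 in cultured VE and 13.9 ± 1.89 in Epi of E4.75 (SD, n = 3 each), and lowest in cultured TGC at 1.35 ± 1.62 TPM (SD, n = 4). In VE_Epi its 2 libraries were 37.2 and 109 TPM. Cox7a2l, a relative that joins complexes III and IV, averaged 259 TPM. Cox7b2, best known from testis, was highest in Epi of E4.75 (25.9, 28.6 and 29.5 TPM), was listed at 0 in ICM and TE of E3.5, and fell to 1.97, 1.32 and 0 TPM in cultured Epi, at −3.93 ± 0.66 (SE; limma, adjusted p = 3.5e-06). Cox6b2 was highest in Epi of E4.5 (82.6 ± 9.11 TPM) and E4.75 (61.9 ± 0.355 TPM; SD, n = 3 each). Cox4i2 and Cox8c reached group means of at most 6.57 and 5.71 TPM, in contrast to 1732 and 1405 TPM on average for Cox4i1 and Cox8a.

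Ndufa4l2, a paralog of the complex IV subunit Ndufa4 that low oxygen is known to induce, had a higher mean in each in vivo Epi group than in its partner group. It was at 14.6, 12.2 and 12.2 TPM in vivo and 0.416, 1.94 and 0 TPM in the unsuffixed group at E5.0, at −3.12 ± 0.56 (SE; limma, adjusted p = 1.3e-05), a call that no alternative ended. At E5.25 the values were 8.01, 22.8 and 17.6 TPM in vivo and 5.35, 1.18 and 4.85 TPM in the unsuffixed group, and at E5.5 4.10 and 40.7 in vivo and 1.99, 0 and 4.74 TPM in culture. The last pair overlapped, and its call (−2.50, adjusted p = 0.0017) was lost without in vivo replicate 2. Ndufa4 itself averaged 921 TPM.

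**Figure D5:**
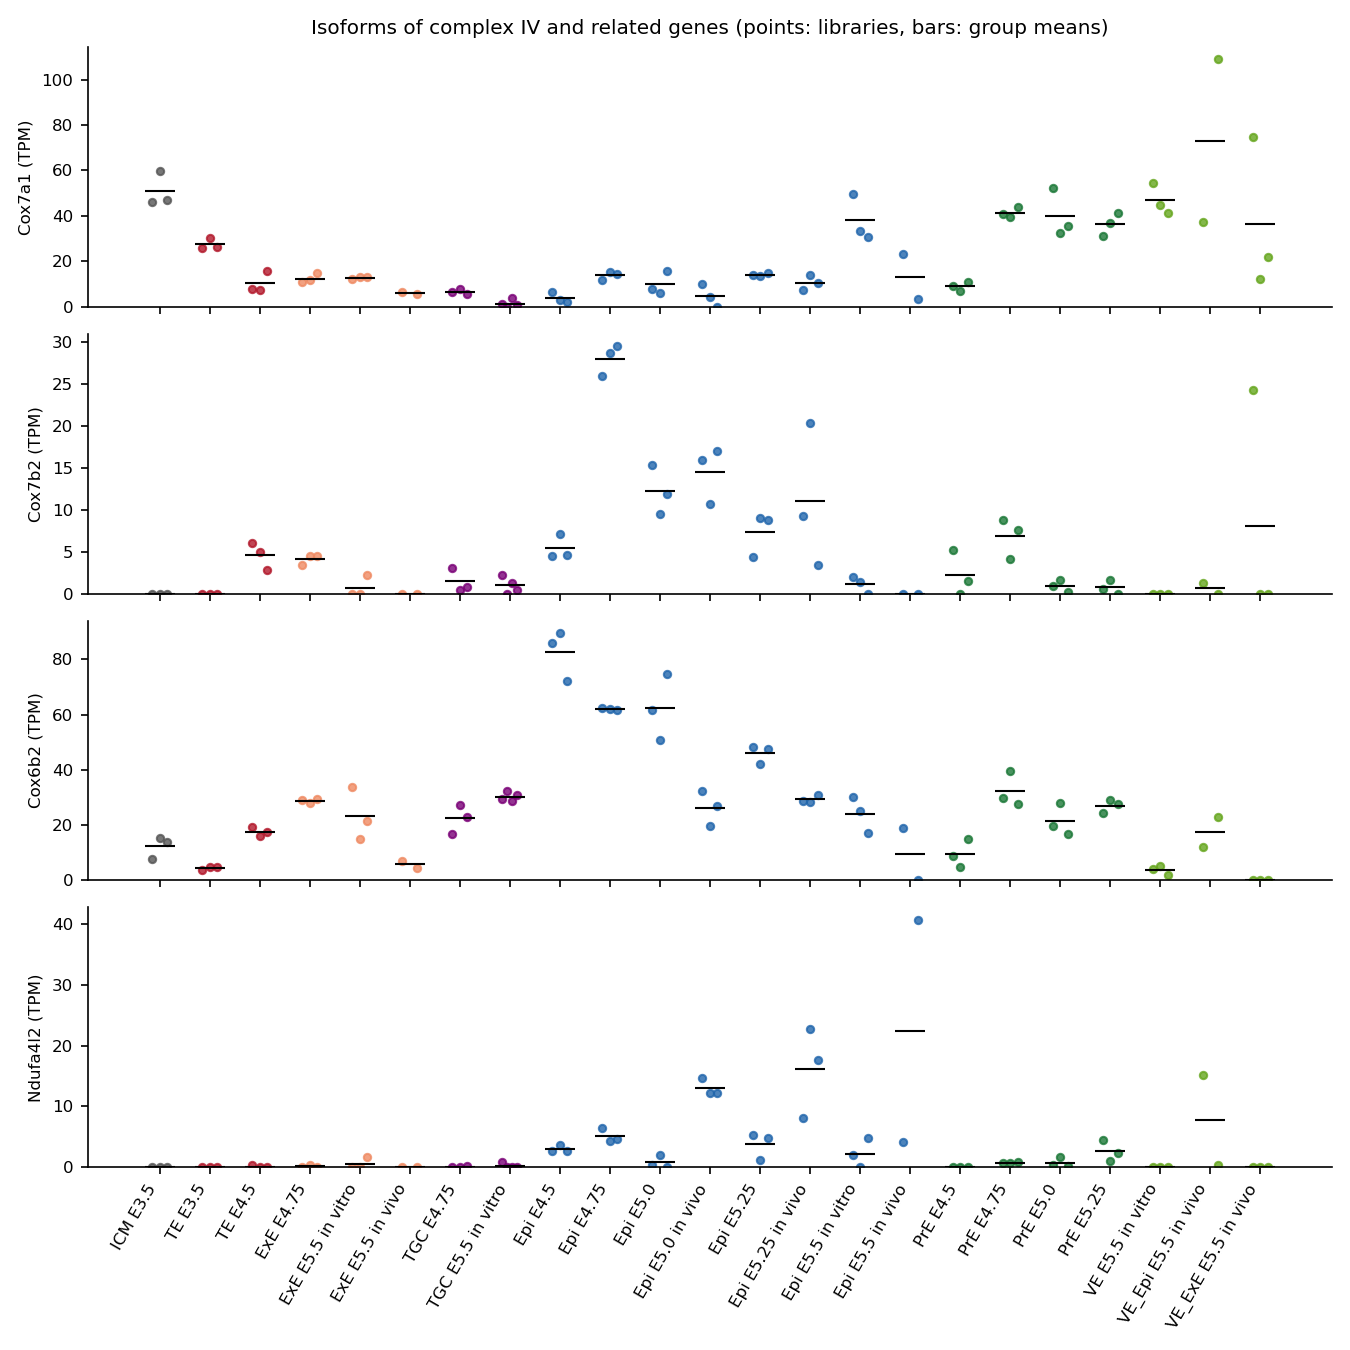
TPM (y axis) of Cox7a1, Cox7b2, Cox6b2 and Ndufa4l2 (panels) in each library (points) of the 23 groups (x axis), with group means (bars). Ndufa4l2 is highest in 1 of 2 libraries of Epi of E5.5 in vivo, and Cox7b2 is listed at 0 in ICM and TE of E3.5.

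Genes of linked pathways, listed by function, are given beside the complexes, each count with the share of all genes called. Glycolysis splits glucose to pyruvate. In Epi of E4.75 against ICM its 18 genes gave 16 higher and 0 lower (13% and 8.84% of all genes), with the lactate dehydrogenases Ldha at 5.58 (adjusted p = 7.2e-40) and Ldhb at 5.56 (adjusted p = 3.2e-09). The 14 genes of the citric acid cycle gave 0 higher and 4 lower, with Sucla2 at −2.01 (adjusted p = 1.4e-18) and Idh2 at −1.37 (adjusted p = 3.6e-08). The glycolysis split became 16 and 0 (quantile), 15 and 0 (median-ratio) and 13 and 0 (length trend removed), and that of the cycle 0 and 2 (quantile), 0 and 4 (median-ratio) and 0 and 5 (length trend removed). From ExE of E4.75 to cultured ExE, glycolysis genes gave 10 higher and 1 lower (14.8% and 6.97% of all genes), beside the 29 lower genes of the complexes, and 11 and 0 (quantile), 6 and 2 (median-ratio) and 9 and 0 (length trend removed) with other scalings. Ldhb was higher by 6.22 (adjusted p = 1.8e-10) and Pdk1, which inhibits pyruvate dehydrogenase, by 3.62 (adjusted p = 2.7e-07). In TGC over the same interval the split was 0 higher and 7 lower (6.57% and 14.8% of all genes), and 0 and 3 (quantile), 1 and 3 (median-ratio) and 0 and 4 (length trend removed).

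Cultured TGC against cultured ExE gave 1 higher and 13 lower among the glycolysis genes and 0 higher and 8 lower among 12 regulators of mitochondrial biogenesis, where 6.28% and 31.5% of all genes were called. These counts depended on the scaling, with 3 and 12 (quantile), 2 and 7 (median-ratio) and 2 and 11 (length trend removed) for glycolysis and 1 and 3 (quantile), 2 and 3 (median-ratio) and 2 and 4 (length trend removed) for the regulators. Tfam, which packs mitochondrial DNA, was at −2.49 (adjusted p = 1.2e-16) and was called lower under each of these scalings. From E4.75 to E5.5 in cultured Epi, glycolysis genes gave 4 higher and 3 lower and citric acid cycle genes 1 higher and 1 lower (11.1% and 11.2% of all genes). From TE of E3.5 to E4.5 the cycle gave 0 higher and 6 lower (3.25% and 18.3% of all genes), and 0 and 2 (quantile), 0 and 1 (median-ratio) and 0 and 3 (length trend removed). Of 16 other genes of electron transport and coupling, such as Cycs, PrE of E5.25 had 5 higher and 0 lower than Epi (9.94% and 11.2% of all genes), and the counts were the same after quantile normalization, median-ratio scaling and removal of the length trend.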

How the data were processed

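The 67 libraries hold polyadenylated RNA of small pools of cells, amplified by Smart-seq2. The values are TPM per gene, deposited by the authors in 1 table; the submitters' processing notes name mm10 as build and, as tools, Cufflinks, HISAT2 2.2.1 and StringTie 2.2.1; what each did, the annotation and the strand setting are not given in the sources used here. Columns summed to 985702 to 996469 TPM. Since TPM keeps no depth, no interval from counts is given. Groups follow the labels. The genes, lists and promoter words were chosen with earlier results of these data known, and the 5 comparisons with E4.5 or from E4.75 or E5.25 to E5.5 in ExE, TGC and PrE or VE, like the split by complex at E5.5, were added after seeing group levels.

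Tests used limma 3.58.1 (R 4.3.3; trend and empirical Bayes) on log2(TPM + 1), which understates the change of low genes, for the 15567 genes with at least 1 TPM in at least 3 libraries, in 1 fit of all libraries. A gene was called at a Benjamini-Hochberg adjusted p under 0.05 over all genes where the log2 difference was also 1 or more in size; the number after ± is the SE. On simulated data of 15567 genes the fit recovered 76% of genes changed by 1.5 log2 and 100% of those changed by 3 for TE against ICM, with 5.88% false calls. For cultured Epi against Epi of E4.75 it recovered 72% and 96%, with 3.45% false calls. The changed genes were of higher mean level and each gene had the same spread in all groups. Low isoforms and groups of unequal spread are therefore not covered. Named are the 3 markers Cox5a, Cox4i1 and Atp5g3, the highest and lowest gene of each class, the isoforms, and the largest called differences of each class. Alternatives changed the scaling, pseudocount, filter, minimum difference, fit, replicate block, length trend and each library; the length trend, and a total without Actb, were added after seeing the data. Transcript lengths came from GENCODE for GRCm38, promoters from RefSeq.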

Additional observations from a re-analysis of the deposited data

Results flagged for a closer look

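Ndufa4l2 was at 0.914 TPM in replicate 1 of cultured TGC and listed at 0 in the other 3 libraries, so that this library's gap spans the whole range of its group. It was the 1 such library among 77 tests of this kind, and chance alone gives about 1 in 20. Ndufaf3 was the gene whose difference between PrE and Epi changed from E4.75 to E5.25, with an interaction of −1.12 ± 0.30 (SE; limma, adjusted p = 0.014): it was at 43.5 TPM in PrE and 27.4 TPM in Epi at E4.75, and at 37.1 and 51.6 TPM at E5.25.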

How the results depend on the processing

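No named gene that was called was called in the opposite direction in any alternative run. This does not cover the sign of differences that were not called. Counts of called genes moved by more than 1.5 times as follows. With no minimum difference the counts were 33 (TE and ICM), 59 (TE of E4.5 and E3.5), 42 (Epi of E4.75 and ICM), 67 (cultured Epi and Epi of E4.75), 20 and 28 (PrE and Epi of E4.75 and E5.25), 42 (VE and Epi), 3 and 63 (TGC and ExE of E4.75 and E5.5), 51, 19 and 58 (Epi in vivo of E5.0, E5.25 and E5.5), 61, 73 and 51 (ExE, TGC and PrE to VE up to E5.5). Median-ratio scaling gave 47 (TE stages), 7 (VE and Epi), 67 (TGC and ExE of E5.5), 10 (Epi of E5.5 in vivo), 0 (interaction), 46 (ExE) and 23 (PrE to VE), and quantile normalization 22 (TGC and ExE of E5.5). A pseudocount of 0.1 TPM gave 0 for PrE and Epi of E4.75 and 0 for Epi of E5.25. Removing the length trend gave 28 (TGC and ExE of E5.5) and 8 (Epi of E5.5 in vivo). Fits of only the groups compared gave 4 (PrE and Epi of E5.25), 0 (Epi of E5.25), 8 (Epi of E5.5) and 3 (interaction). Leaving out 1 library gave 1 to 4 for TE and ICM, 0 to 2 for PrE and Epi of E4.75, 0 to 2 for Epi of E5.25, 12 to 28 for Epi of E5.5 and 0 to 2 for the interaction. The cause was not tested. Leaving out Rn45s or the filter on low values moved no count by that much. Counts in this paragraph add both directions, so a split can turn without being listed. That of unsuffixed against in vivo Epi of E5.0 turned with other scalings and shifted with Rn45s left out (values above).

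With a replicate block, pairing libraries by number, all 18 counts stayed within 1.5 times, for example 4 higher and 19 lower for cultured Epi against Epi of E4.75, 3 and 8 for cultured TGC against cultured ExE, and 1 and 19 for TGC over time. Over 62 pairs of libraries with the same number, deviations from the group means correlated at −0.0484 to 0.0586, so the numbers were not taken as pairs. Of the summed shares, 22 of 138 moved by more than 1 SD with Rn45s left out, and none of 402 without 1 library. What depth limits cannot be read from TPM: low isoforms such as Cox4i2 and Cox8c are the least certain.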
